A study of Mus musculus with 24 samples.

Results

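The 10 genes described here build and regulate the MHC class I pathway: the class I heavy chains H2-K1 and H2-D1, the light chain B2m, the peptide transporter genes Tap1 and Tap2, the loading factor Tapbp, the transactivator Nlrc5, and the immunoproteasome subunit genes Psmb8, Psmb9 and Psmb10. They are listed by name for their place in this pathway, and the list was drawn up with earlier results of these data known. All 10 were found by Ensembl ID among the 21755 genes measured in p16-3MR livers. The wild-type table names its 12643 genes by labels that lack 9 lower-case letters, and 6 of the 10 (H2-K1, H2-D1, Tap2, Nlrc5, Psmb8 and Psmb9) had a label that fits exactly 1 symbol. B2m, Tap1, Tapbp and Psmb10 were therefore described in p16-3MR livers only.

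Class I molecules show peptides from inside the cell to cytotoxic T cells and are read by natural killer cells. The proteasome cuts proteins into peptides, and in cells exposed to interferon the subunits encoded by Psmb8, Psmb9 and Psmb10 take the place of the constitutive catalytic subunits of Psmb5, Psmb6 and Psmb7. TAP1 and TAP2 carry the peptides into the endoplasmic reticulum, tapasin (Tapbp) helps to load them onto the heavy chain bound to B2M, and NLRC5 acts at class I promoters. In liver, hepatocytes carry little class I at rest, while Kupffer cells, sinusoidal endothelium and lymphocytes carry more.

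Livers of 24 mice in 8 groups of 3 were compared. p16-3MR mice carry, on a bacterial artificial chromosome, a fusion gene under the p16 promoter that includes a viral thymidine kinase, so that ganciclovir (GCV) becomes toxic in cells that express it. Starting between 16 and 18 months of age, p16-3MR females and males were injected intraperitoneally on 5 consecutive days each month with GCV or with vehicle (VEH, water at pH 11). The labels give 150 mg/kg GCV, and the methods of the study give a lower dose. Wild-type females and males, which lack the transgene, received VEH or GCV from 6 months of age, and their livers were taken 3 months later. The labels call the wild-type mice age-matched although they started younger. All 12 p16-3MR libraries belong to batch 1 and all 12 wild-type libraries to batch 2, so genotype, age and batch cannot be told apart and no test was made between the tables. Mice are the replicates, so the p-values measure the spread between mice.

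Estimated counts summed to between 5005760 and 7160172 per p16-3MR liver and between 3084517 and 5667904 per wild-type liver. Levels are given as counts per 1e6 (CPM) after TMM scaling of the library sizes, and a floor of 3 counts came to between 0.293 and 2.32 CPM. The libraries hold 3′ ends, so levels of different genes are not compared. A liver that stood apart was GCV-treated female 33, with 64.0% of its counts from mitochondrially encoded genes against 12.3% to 22.4% in the other p16-3MR livers. Among p16-3MR livers, GCV-treated male 32 and VEH-treated male 24 had the lowest summed level of 10 hepatocyte markers (29361 and 46445 CPM, against 94642 to 165074 CPM elsewhere) and the highest of 10 Kupffer cell markers (5609 and 2955 CPM, against 171 to 1602 CPM). Cdkn2a, which encodes p16, had 0 to 7 counts per p16-3MR liver, too few to check clearance.

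On GRCm38, 7 of the 10 genes lie within 1351.6 kb of chromosome 17, in the mouse MHC. Psmb9 (chr17:34181987-34187764, minus strand), Tap1 (chr17:34187553-34197225, plus), Psmb8 (chr17:34197721-34201454, plus) and Tap2 (chr17:34203527-34216321, plus) follow each other within 34.3 kb. The annotations of Psmb9 and Tap1 overlap by 0.212 kb at their 5′ ends. H2-K1 (chr17:33996017-34000347, minus), Tapbp (chr17:33915899-33929292, plus) and H2-D1 (chr17:35262730-35267499, plus) flank this cluster. B2m lies at chr2:122147686-122153083 (plus), Nlrc5 at chr8:94434356-94527272 (plus) and Psmb10 at chr8:105935735-105938444 (minus).

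The bases around the start site were read from the RefSeq promoter windows of GRCm38.p6, in which 8 of the 10 members have an entry (Tap2 and Nlrc5 have none). The RefSeq start lies within 100 bases of the GENCODE gene start for 4 members (H2-K1, B2m, Tap1 and Psmb10). It lies 364 bases inside the GENCODE gene for H2-D1, 434 for Psmb9, 474 for Psmb8 and 3579 for Tapbp, and the windows of these 4 lie wholly within the gene. The nearest start of a GENCODE transcript is 8 bases from the RefSeq start for Psmb9 and 34 for Tapbp, but 175 for Psmb8 and 364 for H2-D1. The heavy and light chain genes carried the same pair of motifs side by side. The 250 bases before the start are shown for H2-K1 (chr17:34000348-34000597, minus strand) and B2m (chr2:122147437-122147686, plus strand), with matches to the IRF core AANNGAAA and to the kappaB site in capitals:
H2-K1: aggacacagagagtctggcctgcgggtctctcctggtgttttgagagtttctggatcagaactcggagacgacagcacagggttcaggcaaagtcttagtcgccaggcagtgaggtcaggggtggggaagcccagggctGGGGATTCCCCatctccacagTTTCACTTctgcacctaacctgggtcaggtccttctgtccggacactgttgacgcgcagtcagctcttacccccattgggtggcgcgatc
B2m: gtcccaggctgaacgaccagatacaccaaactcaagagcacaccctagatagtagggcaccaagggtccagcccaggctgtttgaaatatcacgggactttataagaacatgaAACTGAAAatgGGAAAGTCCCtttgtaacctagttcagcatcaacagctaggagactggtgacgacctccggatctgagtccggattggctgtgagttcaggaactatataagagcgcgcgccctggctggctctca

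The H2-D1 window holds the same arrangement, shown as the stretch from the kappaB to the IRF match (chr17:35262923-35262951, plus strand) beside that of H2-K1 (chr17:34000430-34000458, minus strand). These stretches of 29 bases differ at 1 position. By GENCODE that of H2-D1 is transcribed, in an untranslated exon 193 bases after the gene start. The third sequence is the stretch of Psmb8 (chr17:34198088-34198117, plus strand), the member that passed a test below, with its match to the STAT core TTCNNNGAA in capitals. By GENCODE it also lies in an untranslated exon, 367 bases after the gene start:
H2-K1: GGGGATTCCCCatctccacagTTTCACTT
H2-D1: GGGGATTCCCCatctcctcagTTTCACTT
Psmb8: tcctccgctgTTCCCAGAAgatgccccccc
Motifs were searched on both strands of windows from 250 bases before to 50 after each start, and the kappaB matches in H2-K1 and H2-D1 overlap each other. The IRF core was found in 3 of the 8 members with a window (H2-K1, H2-D1 and B2m), and in 23.9% of all 32817 windows. The kappaB site was found in the same 3 members and in 8.46% of windows. The STAT core was found in Psmb8 alone among the members, and in 8.29% of windows. CCAAT was found in 6 members and in 37.4% of windows, and TATAAA in 4 members and 13.6%. The windows of Tap1 and Psmb9 face opposite directions and share 275 bases, without an IRF, STAT or kappaB match. The CCAAT matches of these genes are the same bases read from opposite strands, so this site counts for both members. A match describes letters in this window, and no match says only that these letters are not there.

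Where transcripts share sequence near their 3′ ends, the authors' counting can divide reads between genes. Of the 31-base words in the last 500 bases of the annotated transcripts, 26.4% of those of H2-K1 and 34.5% of those of H2-D1 also occur in another gene, most often in each other or in H2-Q genes. The values of H2-K1, H2-D1 and the H2-Q genes are therefore uncertain between these paralogs. The share was at most 3.7% for the other 8 members.

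The first question was whether GCV changed these genes in p16-3MR livers. In females, the data show lower means after GCV for the transporter, loading and immunoproteasome genes, and higher means for H2-K1, H2-D1 and Nlrc5, with overlapping livers throughout. In males, the mean of every member was higher after GCV, also with overlapping livers. None of these differences passed the test.

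Of the heavy and light chain genes, H2-D1 lay at 591, 1241 and 294 CPM in GCV-treated females (livers 31, 33 and 35) and at 366, 585 and 676 CPM in VEH-treated females (27, 28 and 29). It lay at 725, 826 and 601 CPM in GCV-treated males (30, 32 and 34) and at 828, 493 and 353 CPM in VEH-treated males (24, 25 and 26). Liver 33 was the highest and its group mate 35 the lowest of all 12, so the GCV-treated females spanned the whole range. H2-K1 ranged from 443 CPM (male GCV 32) to 1145 CPM (male GCV 34), and B2m from 1310 CPM (female GCV 33) to 3783 CPM (male GCV 34). For both genes the GCV-treated livers enclosed the VEH-treated livers in each sex. In females the log2 fold change after GCV was 0.38 ± 0.57 (SE) for H2-D1, 0.14 ± 0.50 for H2-K1 and -0.02 ± 0.59 for B2m. In males it was 0.36, 0.11 and 0.36.

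Tap1, which encodes 1 of the 2 chains of the transporter, lay at 18.3, 23.2 and 7.88 CPM in GCV-treated females and at 8.98, 29.7 and 36.2 CPM in VEH-treated females. Among males, Tap1 lay at 27.8, 30.3 and 17.7 CPM after GCV and at 36.1, 14.3 and 9.53 CPM after VEH. The groups overlapped in both sexes, and the highest VEH-treated male was liver 24. Tap2, which encodes the partner chain, lay at 15.6, 1.54 and 10.6 CPM in GCV-treated females and at 13.4, 17.9 and 24.3 CPM in VEH-treated females. The lowest value, in liver 33, rests on 2 counts and lies under the floor of that liver (2.32 CPM). In males Tap2 lay at 17.6, 21.4 and 16.3 CPM after GCV and at 19.95, 11.4 and 9.85 CPM after VEH. The mean level of Tap2 in females was 9.24 ± 7.13 CPM after GCV and 18.5 ± 5.47 CPM after VEH (SD, n = 3 each). The log2 fold change was -0.92 ± 0.53 (SE, edgeR unadjusted p = 0.105, adjusted p = 0.685), the most negative of the 10 members in the fit of all livers. With each liver left out in turn, that of Tap2 ran from -1.45 to -0.57, while Nlrc5 stood at -0.88 without liver 33. Tapbp ranged from 14.7 CPM (female GCV 33) to 63.7 CPM (male VEH 24), and its log2 fold change was -0.61 ± 0.44 in females and 0.30 in males.

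Nlrc5 lay at 18.1, 82.6 and 7.38 CPM in GCV-treated females and at 12.6, 24.6 and 29.95 CPM in VEH-treated females. Male livers were at 22.8, 21.5 and 15.2 CPM after GCV and at 30.3, 11.96 and 10.003 CPM after VEH. Liver 33 alone lifted the mean of the GCV-treated females above that of their VEH group. The female log2 fold change was 0.64 ± 0.70 with this liver and -0.88 without it. H2-D1 moved the same way, from 0.38 to -0.36, and H2-K1 from 0.14 to -0.16.

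Of the immunoproteasome genes, Psmb8 lay at 35.3, 20.1 and 19.1 CPM in GCV-treated females and at 17.8, 40.2 and 60.03 CPM in VEH-treated females. The male livers showed 41.0, 50.6 and 30.4 CPM after GCV and 44.2, 23.04 and 13.4 CPM after VEH. In each sex the VEH group was the wider of the pair and held the highest or lowest value. Psmb9 lay at 32.4, 34.8 and 18.3 CPM in GCV-treated females and at 16.1, 35.4 and 60.3 CPM in VEH-treated females. In males it lay at 32.6, 48.3 and 43.2 CPM after GCV and at 36.6, 21.1 and 14.2 CPM after VEH, so that only liver 24 kept the male groups of Psmb9 from separating. The male log2 fold changes were 0.59 ± 0.49 (edgeR unadjusted p = 0.248) for Psmb8 and 0.78 ± 0.48 (unadjusted p = 0.122) for Psmb9, the highest of the members. In females they were -0.66 ± 0.50 and -0.40 ± 0.48. Psmb10 had the narrowest range, from 8.496 to 20.3 CPM, with log2 fold changes of -0.22 in females and 0.16 in males.

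**Figure D1:**
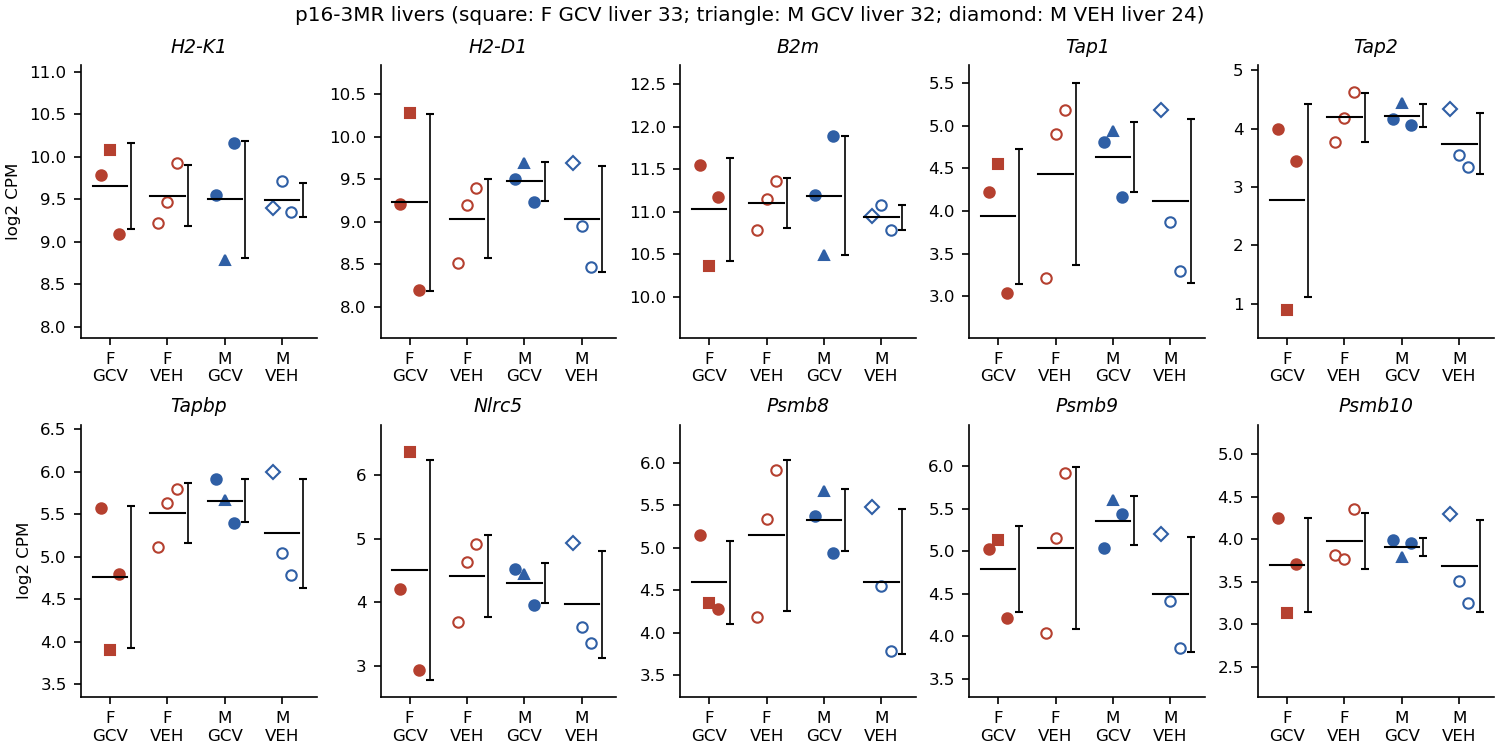
Log2 CPM of each of the 10 members (vertical axis) in the 4 groups of p16-3MR livers, 1 point per liver, filled for GCV and open for VEH, red for females (F) and blue for males (M), with the group mean as a black line and its SD as an error bar. The treatment groups overlap in every panel, and liver 33 (square) is the highest for Nlrc5 at 82.6 CPM and the lowest for Tap2 at 1.54 CPM.

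In p16-3MR females 0 of 10 members passed an adjusted p of 0.05 in edgeR, against 0% of all genes, and 0 of 10 had an unadjusted p under 0.05, against 7.37% of all genes. Of the members 3 of 10 had a log2 fold change above 0, against 46.1% of all genes, with a median of -0.31 against 0.00. The adjusted p-values of the members ran from 0.685 to 1. In p16-3MR males 0 of 10 members passed the adjusted threshold (0% of all genes) and 0 of 10 had an unadjusted p under 0.05 (1.91% of all genes). In males 10 of 10 members had a log2 fold change above 0, against 52.8% of all genes, with a median of 0.35 against 0.04. DESeq2 and limma-voom also called 0 of 10 members in either sex. Over all genes DESeq2 called 90 in females and 5 in males, and limma-voom 7 and 145. By limma-voom 2 of 10 members had an unadjusted p under 0.05 and were higher in males, against 13.6% of all genes. The precision allowed wide differences: the 95% interval of the log2 fold change of Psmb8 ran from -1.73 to 0.42 in females and from -0.47 to 1.65 in males.

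The next question was whether the response to GCV differed between females and males, taken as the female minus the male log2 fold change. This difference was most negative for Tap2 (-1.34 ± 0.74, edgeR unadjusted p = 0.0921), Psmb8 (-1.25 ± 0.70, unadjusted p = 0.0967) and Psmb9 (-1.18, unadjusted p = 0.101). Tap1 (-0.97) and Tapbp (-0.91) followed, while Psmb10 and B2m stood at -0.38, H2-K1 at 0.03, H2-D1 at 0.02 and Nlrc5 at 0.45. The median over the members was -0.64, against -0.04 over all genes. By edgeR 0 of 10 members passed the adjusted threshold (0% of all genes) and 0 of 10 had an unadjusted p under 0.05 (3.78% of all genes), and the adjusted p-values ran from 0.976 to 1. DESeq2 and limma-voom called 0 of 10 as well, and over all genes they called 3 and 1. By limma-voom 2 of 10 members had an unadjusted p under 0.05 and a more negative response in females, against 7.49% of all genes.

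The size of this difference moved with single livers, most of all with male 24. Without VEH-treated female 29 the female median rose from -0.31 to 0.02, with 5 of 10 members above 0, and the difference between the sexes was -0.43. Without VEH-treated male 26 the male median went from 0.35 to 0.10, with 8 of 10 above 0, and the difference was -0.47. In both settings 0 of 10 members had an unadjusted p under 0.05 in edgeR. Without GCV-treated female 33 the female median was -0.47, with 1 of 10 members above 0. The difference between the sexes was then -0.84, with 0 of 10 above 0. Without GCV-treated female 31, Tap2 and Tapbp had an unadjusted p under 0.05 and were lower after GCV in females (against 1.82% of all genes), and the same 2 had a more negative response in females (against 1.71%). Without VEH-treated female 27 the latter held for Psmb8 and Psmb9 (against 2.11%). Without male 24 the male median rose from 0.35 to 0.80, and 2 of 10 members, Psmb8 (1.19) and Psmb9 (1.25), had an unadjusted p under 0.05 and were higher after GCV, against 6.3% of all genes. The median difference between the sexes then went from -0.64 to -1.14, and 5 of 10 members (Tap1, Tap2, Tapbp, Psmb8 and Psmb9) had an unadjusted p under 0.05 and a more negative response in females, against 6.95% of all genes. Leaving out the 3 livers that stood apart (female GCV 33, male GCV 32 and male VEH 24), a setting added after the data were seen, gave similar counts. These livers were picked by mitochondrial share and by hepatocyte and leukocyte marker sums. Leukocyte sums went with the transporter, loading and immunoproteasome genes (below), so this setting is not an independent check. In males 2 of 10 members (Tapbp and Psmb9) then had an unadjusted p under 0.05 in the higher direction, against 4.39% of all genes. The difference between the sexes was then negative for all 10 members with a median of -1.18, and 6 of 10 (Tap1, Tap2, Tapbp, Nlrc5, Psmb8 and Psmb9) had an unadjusted p under 0.05, against 6.14% of all genes. In none of these settings did a member pass the adjusted threshold, and the lowest adjusted p for the difference between the sexes without the 3 livers was 0.424.

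**Figure D2:**
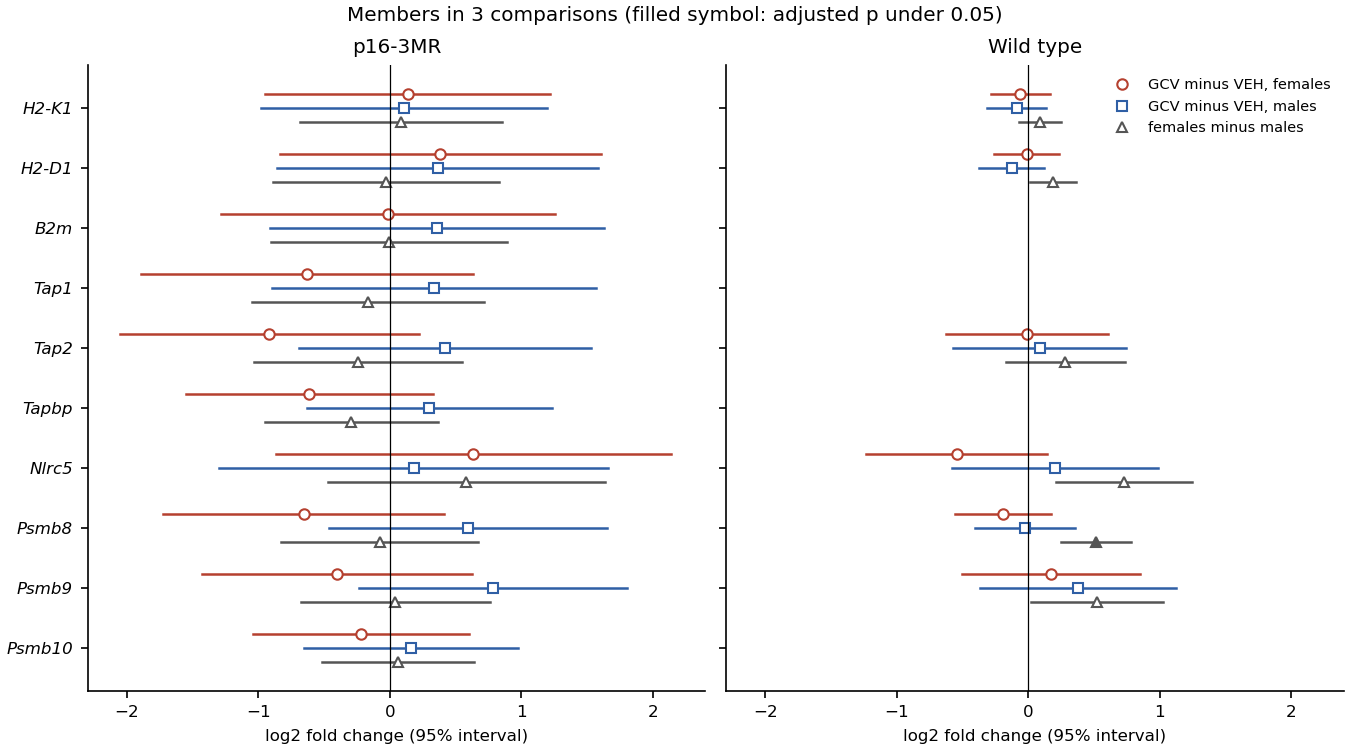
Log2 fold change (horizontal axis) of each member (rows) for GCV minus VEH in females and in males and for females minus males, in p16-3MR livers (left) and wild-type livers (right), with bars for the 95% interval and a filled symbol for an adjusted p under 0.05. In p16-3MR livers every interval includes 0, the GCV contrast of males lies above 0 for all 10 members, and in wild-type livers the interval of females minus males for Psmb8 runs from 0.25 to 0.78.

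Between females and males of the p16-3MR cohort, averaged over both treatments, none of the members passed the test. Psmb8 lay at 32.1 ± 16.6 CPM in females and 33.8 ± 14.0 CPM in males (SD, n = 6 each), a log2 difference of -0.08 with a 95% interval from -0.83 to 0.67. Nlrc5 had the largest difference, at 0.58 ± 0.49 (SE), and it was -0.15 without liver 33. By edgeR 0 of 10 members passed the adjusted threshold, against 0.303% of all genes, and 0 of 10 had an unadjusted p under 0.05, against 7.05%. DESeq2 and limma-voom called 0 of 10, and over all genes they called 196 and 215. The median was -0.02, with 0.29 in VEH-treated mice alone and -0.37 in GCV-treated mice alone. Leaving out each liver in turn, the first ran from 0.03 (without VEH-treated female 29) to 0.74 (without VEH-treated male 24) and the second from -0.57 to -0.26. Without the 3 livers that stood apart the median in VEH-treated mice was 0.74, and 5 of 10 members had an unadjusted p under 0.05 and were higher in females, against 4.77% of all genes, with 0 of 10 past the adjusted threshold in edgeR. Among GCV-treated mice, Tap2 lay at 9.24 ± 7.13 CPM in females and 18.4 ± 2.62 CPM in males (SD, edgeR adjusted p = 0.613), and the lowest of the female values was that of liver 33.

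Markers of leukocytes moved with the transporter, loading and immunoproteasome genes from liver to liver, while Nlrc5 was highest in liver 33, which had a leukocyte sum of 146 CPM. The list holds 6 genes (Ptprc, Coro1a, Laptm5, Lcp1, Cd53 and Cd52), all 6 measured and none at 0 in any liver. Its summed level was 103, 146 and 97.1 CPM in GCV-treated females and 140, 300 and 340 CPM in VEH-treated females. In males it was 362, 1229 and 142 CPM after GCV and 554, 116 and 113 CPM after VEH. The highest sums of Tap1, Tap2 and Tapbp stood in VEH-treated male 24 (120 CPM), VEH-treated female 29 (116 CPM), GCV-treated males 30 (105 CPM) and 32 (102 CPM) and VEH-treated female 28 (96.9 CPM). These are the 5 livers with the highest leukocyte sums, and the other 7 livers lay between 39.4 and 81.2 CPM.

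The immunoproteasome sum of Psmb8, Psmb9 and Psmb10 was between 89.0 and 141 CPM in the same 5 livers and between 36.9 and 88.7 CPM in the other 7, a narrow gap. The sum of H2-K1, H2-D1 and B2m did not follow the order, with 2702 to 4290 CPM in those 5 livers and 2734 to 5529 CPM in the other 7. The 6 leukocyte markers had a median log2 fold change after GCV of -1.23 in females and 1.38 in males, and 0 of 6 passed an adjusted p of 0.05 in edgeR in either sex. The part of the leukocyte markers in the values of the members was not tested. In whole liver, fewer cells of a type and less RNA per cell cannot be told apart.

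**Figure D3:**
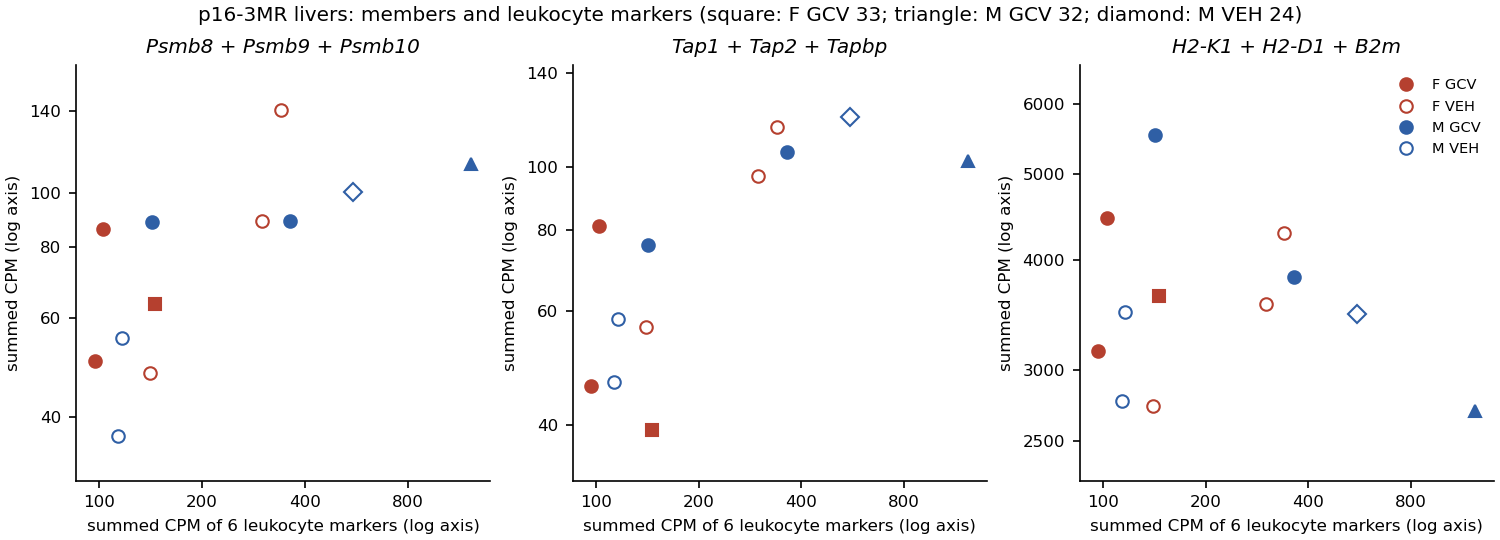
Summed CPM of 3 groups of members (vertical axes, log scale) against the summed CPM of 6 leukocyte markers (horizontal axis, log scale), 1 point per p16-3MR liver, filled for GCV and open for VEH, red for females and blue for males. The transporter and loading sum and the immunoproteasome sum are highest in the 5 livers with the highest leukocyte sums (300 to 1229 CPM), and the heavy and light chain sum is not.

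The immunoproteasome genes were also set against the constitutive subunits that they replace, as a log2 ratio of CPM within each liver with a pseudocount of 0.5 CPM. The ratio of Psmb8 to Psmb5 was 0.14, 1.80 and -0.04 in GCV-treated females and 0.24, 1.44 and 1.63 in VEH-treated females. In males it was 1.52, 1.94 and 0.16 after GCV and 1.57, -0.09 and -0.53 after VEH. The treatment groups overlapped in both sexes, and the values fell either between -0.53 and 0.24 or between 1.44 and 1.94. The ratio of Psmb9 to Psmb6 ran from -2.29 (male VEH 26) to 0.33 (male GCV 32), and that of Psmb10 to Psmb7 from -2.71 (male VEH 26) to -0.86 (male VEH 24). The constitutive genes themselves had log2 fold changes after GCV of 0.28 (Psmb5), 0.41 (Psmb6) and -0.08 (Psmb7) in females and of -0.13, 0.12 and -0.12 in males. By edgeR 0 of these 3 passed an adjusted p of 0.05 and 0 of 3 had an unadjusted p under 0.05. In wild-type livers Psmb9 to Psmb6 ran from -4.51 to -2.62 with a median of -3.58, and the other ratios could not be formed.

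**Figure D4:**
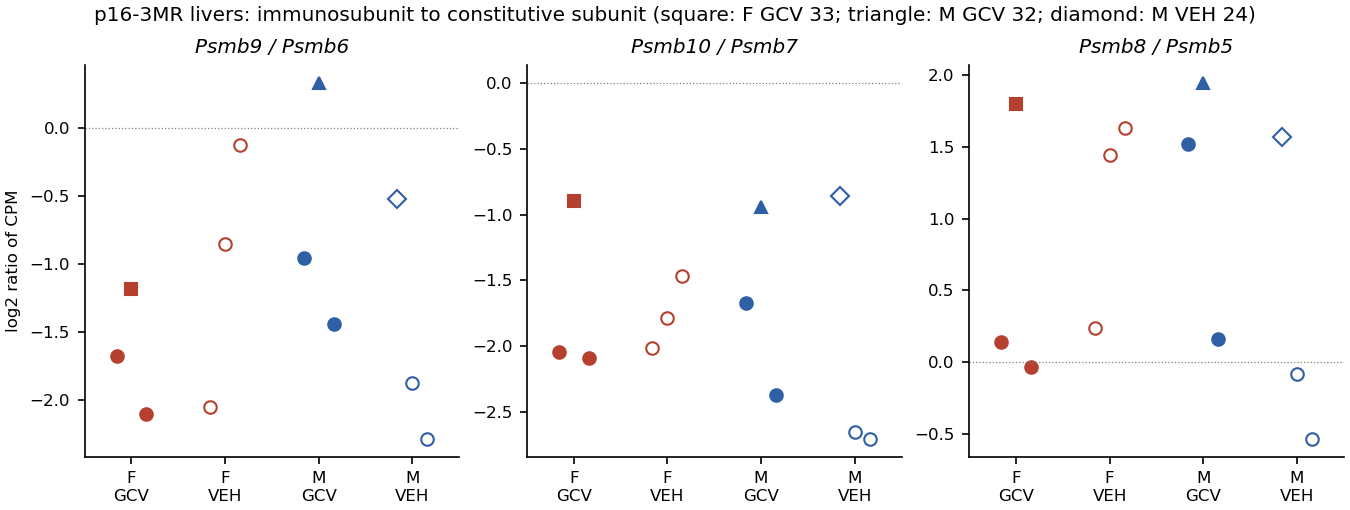
Log2 ratio of each immunoproteasome gene to its constitutive counterpart (vertical axis) by sex and treatment, 1 point per p16-3MR liver, filled for GCV and open for VEH, red for females and blue for males, with a dotted line at 0. In each group the points of Psmb8 to Psmb5 lie both at 0.24 or below and at 1.44 or above, and the treatment groups overlap for each ratio.

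Other genes of class I presentation and its regulation in p16-3MR livers were counted by list. Of 14 nonclassical class I genes measured, 2 had a log2 fold change above 0 after GCV in females and 3 in males, with medians of -0.34 and -0.13. Of 19 interferon signalling genes and class I regulators, 2 were above 0 in females and 14 in males, with medians of -0.38 and 0.19. In this list Rfx5, which binds the X box of class I and class II promoters, lay at 5.4 to 7.7 CPM after GCV and at 12.2 to 12.7 CPM after VEH in females, a log2 fold change of -1.05 (edgeR adjusted p = 0.646).

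Of 15 interferon-stimulated genes, 4 were above 0 after GCV in females and 5 in males, with medians of -0.88 and -0.27. All 7 class II genes were below 0 in females, with a median of -2.24, and above 0 in males, with a median of 1.62. Class II is carried by antigen-presenting leukocytes, and 10 Kupffer cell markers had medians of -1.42 in females and 1.04 in males (0 of 10 called). The part of these cells in the class II values was not tested. Of 11 other subunits of the 20S core, 7 were above 0 in females and 10 in males, with medians of 0.15 and 0.13. Of 9 proteasome activator and assembly genes, 7 were above 0 in each sex, and of 8 chaperones and peptide-trimming enzymes, 3 in females and 6 in males. By edgeR 0 genes of these lists passed an adjusted p of 0.05 in either sex, and in females 4 of the 19 regulators, 5 of the 15 interferon-stimulated genes and 5 of the 7 class II genes had an unadjusted p under 0.05 and were lower after GCV, as did 1 of the 14 nonclassical genes, against 2.32% of all genes. In the same sex 2 of the 9 proteasome activator and assembly genes had an unadjusted p under 0.05 and were higher, against 5.05% of all genes.

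In wild-type mice, which lack the transgene, GCV was compared with VEH in the same way for the 6 members with a label of their own. In both sexes the treated and untreated livers overlapped for each of the 6. Levels varied less between wild-type livers than between p16-3MR livers, with a common biological coefficient of variation of 16.6% against 55.8%, which was not tested. The mean of wild-type females lay above that of wild-type males for each of the 6 members, and Psmb8 alone passed the test of that difference.

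Psmb8 lay at 56.5, 49.8 and 58.0 CPM in GCV-treated females (livers 4, 5 and 6) and at 50.4, 82.1 and 56.2 CPM in VEH-treated females (livers of the same numbers from other mice). In males it lay at 42.1, 33.4 and 47.3 CPM after GCV (livers 1, 2 and 3) and at 49.5, 34.97 and 40.05 CPM after VEH. All female livers lay above all male livers, by a narrow margin between 49.8 and 49.5 CPM. Nlrc5 lay at 8.36, 5.47 and 8.02 CPM in GCV-treated females and at 5.50, 11.5 and 15.8 CPM in VEH-treated females. Male levels were 5.97, 4.51 and 7.02 CPM after GCV and 6.12, 3.72 and 5.22 CPM after VEH. The VEH-treated females held its highest values, and the sexes overlapped.

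Psmb9 lay at 17.8, 8.92 and 28.6 CPM in GCV-treated females and at 13.8, 22.6 and 14.1 CPM in VEH-treated females. In males it lay at 18.2, 9.64 and 15.3 CPM after GCV and at 16.0, 9.18 and 7.93 CPM after VEH, again with overlap between the sexes. Tap2 ran from 4.64 to 10.9 CPM over the 12 livers. H2-K1 ran from 778 to 1017 CPM in females and from 735 to 893 CPM in males, and H2-D1 from 203 to 254 CPM in females and from 163 to 231 CPM in males.

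**Figure D5:**
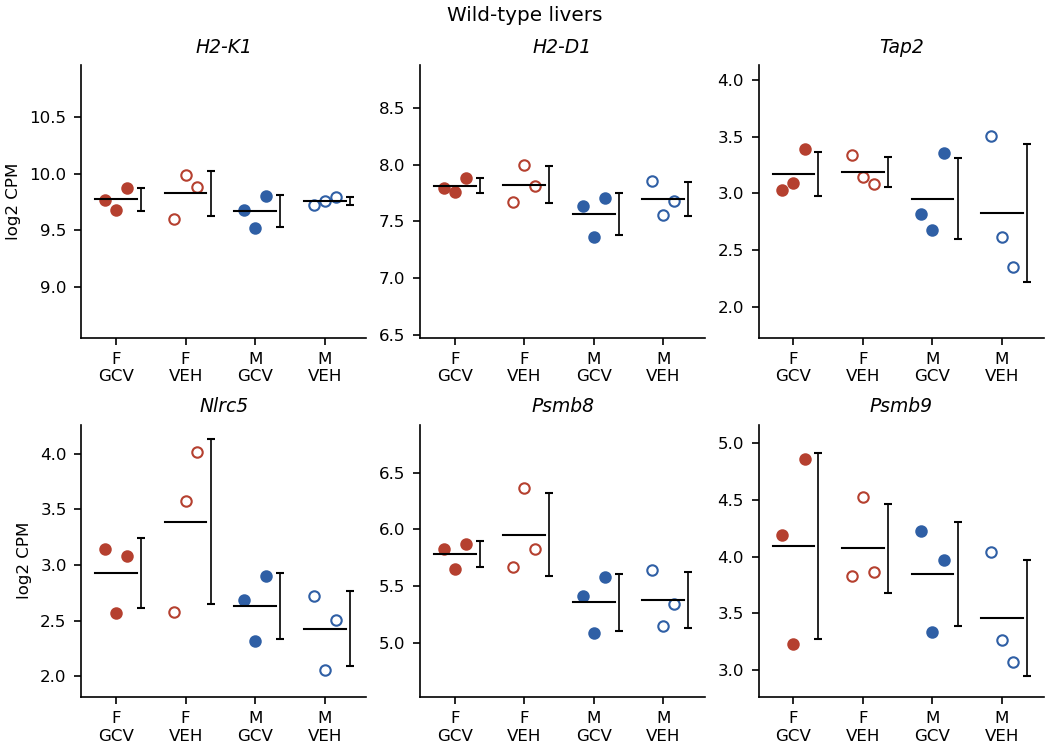
Log2 CPM (vertical axis) of the 6 members measured in wild-type livers by sex (F, M) and treatment, 1 point per liver, filled for GCV and open for VEH, with the group mean as a black line and its SD as an error bar. The female points of Psmb8 lie at 49.8 CPM or more and the male points at 49.5 CPM or less.

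After GCV the log2 fold changes in wild-type females were -0.06 for H2-K1, -0.01 for H2-D1, -0.01 for Tap2, -0.55 ± 0.33 (SE) for Nlrc5, -0.19 ± 0.17 for Psmb8 and 0.17 ± 0.33 for Psmb9. By edgeR 0 of 6 members passed the adjusted threshold (0.00791% of all genes) and 0 of 6 had an unadjusted p under 0.05 (4.56%). In wild-type males they were -0.09, -0.13, 0.09, 0.20, -0.02 and 0.38 in the same order. Again 0 of 6 passed the adjusted threshold (0% of all genes) and 0 of 6 had an unadjusted p under 0.05 (5.06%). The female minus male response was most negative for Nlrc5, at -0.75 ± 0.50 (edgeR unadjusted p = 0.149). For this difference 0 of 6 passed the adjusted threshold (0.00791% of all genes) and 0 of 6 had an unadjusted p under 0.05 (4.45%). DESeq2 and limma-voom called 0 of 6 in these 3 comparisons. Over all genes they called 17 and 3 for GCV in females. With each liver left out in turn, Nlrc5 in females ran from -0.88 to -0.19. Psmb8 ran from -0.33 to 0.04 and Psmb9 from -0.30 to 0.48 there. Without VEH-treated female 4, 1 of 6 members had an unadjusted p under 0.05 in edgeR and was lower after GCV in females, against 266 of 12643 genes. For the female minus male response it was also 1 of 6, against 290 genes.

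Averaged over both treatments, Psmb8 was higher in wild-type females than in males (58.8 ± 11.9 against 41.2 ± 6.44 CPM, SD, n = 6 each), with a log2 difference of 0.52 ± 0.13 (SE, edgeR unadjusted p = 0.000569, adjusted p = 0.0123). Nlrc5 lay at 9.10 ± 3.95 CPM in females and 5.43 ± 1.19 CPM in males, a log2 difference of 0.73 ± 0.25 (unadjusted p = 0.00811, adjusted p = 0.0799). Psmb9 differed by 0.52 ± 0.24 (adjusted p = 0.227), H2-D1 by 0.19 ± 0.08 (adjusted p = 0.208), Tap2 by 0.28 (adjusted p = 0.517) and H2-K1 by 0.09 (adjusted p = 0.569).

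By edgeR 1 of 6 members was called, against 7.94% of all genes in either direction and 3.89% in the higher direction. Of the members 4 of 6 had an unadjusted p under 0.05 in the higher direction, against 10.4%. With 1 call among 6 genes, the members cannot be set apart from the share over all genes. The members also went together across these livers, so the 4 are not separate results. Leaving out each liver in turn, 1 to 2 members were called in edgeR, against 788 to 1257 of 12643 genes. In these fits 2 to 5 members had an unadjusted p under 0.05 in the higher direction, against 1120 to 1439 genes. All 6 of 6 log2 differences were above 0, against 53.5% of all genes, with a median of 0.40 against 0.03. The sexes did not overlap for 1 of 6 members, against 2.31% of all genes with females higher. DESeq2 also called Psmb8 alone among the members, and it called 458 genes higher and 581 lower of 10678. By DESeq2 2 of 6 members had an unadjusted p under 0.05 in the higher direction, against 7.99% of all genes. Within VEH-treated mice the log2 difference of Psmb8 was 0.60 (edgeR adjusted p = 0.0655) and within GCV-treated mice 0.43 (adjusted p = 0.289).

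Other class I genes differed between wild-type females and males as well. Of 12 nonclassical class I genes measured, 5 were higher in females and 1 lower by edgeR at an adjusted p of 0.05, against 3.89% and 4.05% of all genes, with a median log2 difference of 0.48. H2-T23, which encodes the Qa-1 molecule that presents leader peptides of other class I chains, was higher at 106 against 75.9 CPM (0.49, adjusted p = 0.00271). H2-T22 differed by 0.48 (48.9 against 35.3 CPM, adjusted p = 0.0116) and Cd1d1, which presents lipids to natural killer T cells, by 0.42 (114 against 85.3 CPM, adjusted p = 0.00265). H2-Q1 (1.37, adjusted p = 0.00553) and H2-Q6 (0.79, adjusted p = 0.00902) were also higher, and both belong to the paralogs among which counts can be divided. H2-Q10, which encodes a class I molecule secreted by the liver, was lower in females, at 1000.5 against 1305 CPM (log2 difference -0.38, adjusted p = 0.000317), with no overlap between the sexes.

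Of 15 interferon signalling genes and class I regulators measured in wild-type livers, 13 were above 0 in females minus males and 2 were called higher by edgeR, against 3.89% of all genes. Rfxank, a subunit of the factor that binds the X box, was among these 2 (0.83, edgeR adjusted p = 0.0205). All 6 interferon-stimulated genes measured were above 0 and 2 were called, Igtp (1.02, 40.2 against 20.3 CPM, adjusted p = 0.000461) and Cxcl9 (0.72, adjusted p = 0.00522). By edgeR 0 of 2 constitutive catalytic subunits (Psmb6 -0.02, Psmb7 -0.16), 0 of 3 other 20S subunits, 0 of 5 chaperones and peptide-trimming enzymes and 0 of 7 class II genes were called. Of these 4 lists together, 2 genes (Sec61a1 and Pdia3, both of the chaperone list) had an unadjusted p under 0.05 and were lower in females, against 9.7% of all genes, which is a share near the background.

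Markers of other cells also differed between wild-type females and males. Of the 6 leukocyte markers 4 were above 0 and 1 was called by edgeR (Ptprc, 0.66, adjusted p = 0.047), and their summed level ran from 115 to 160 CPM in females and from 111 to 137 CPM in males. Of 7 Kupffer cell markers measured, 6 were above 0, 3 had an unadjusted p under 0.05 and were higher in females, and 0 were called, with sums of 280 to 426 CPM in females and 224 to 349 CPM in males. Of 5 T and natural killer cell markers measured, 5 were above 0 and 1 was called (Gzma), with sums of 1.58 to 5.47 CPM in females and 0.61 to 1.35 CPM in males, and 2 or 3 of the 5 were at 0 in each male liver. All 4 sinusoidal endothelium markers measured were above 0, with 2 at an unadjusted p under 0.05 and 0 called, and their sums ran from 63.6 to 93.8 CPM in females and from 58.1 to 70.5 CPM in males. Of 5 B and plasma cell markers measured, 4 were above 0, 1 had an unadjusted p under 0.05 and 0 were called, with sums of 10.3 to 26.8 CPM in females and 6.71 to 14.6 CPM in males. Of 5 dendritic cell markers measured, 2 were above 0 and 0 were called. Of 4 stellate cell markers, 2 were called higher in females (Dcn and Lrat), with sums of 276 to 340 CPM in females and 216 to 269 CPM in males. Of 3 hepatocyte markers 1 was called lower (Serpina1c), with sums of 13629 to 15295 CPM in females and 17423 to 19251 CPM in males. The sexes did not overlap in either of these sums. Over all genes 3.89% were called higher and 4.05% lower, and 10.4% had an unadjusted p under 0.05 and were higher. Their part in the difference of Psmb8 was not tested.

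The members were also compared with each other across livers by Spearman rank correlation of log2 CPM, as a description of livers that share batch, depth and composition. Over 12 p16-3MR livers the median of the 45 pairs was 0.51. Tap1 with Psmb8, Tap2 with Tapbp and Tap2 with Psmb8 stood highest, at 0.92, and H2-D1 with Nlrc5 and Psmb8 with Psmb9 reached 0.87 and 0.86. B2m stood lowest with H2-D1 (-0.17) and Nlrc5 (-0.12), and H2-K1 stood at 0.22 or less with Tap1, Tap2, Tapbp, Psmb8 and Psmb10. Over 12 wild-type livers the median of the 15 pairs was 0.64, from 0.22 (H2-K1 with Tap2) to 0.85 (H2-D1 with Psmb8).

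The genes most like the mean of the members, over the same livers of both sexes, were ranked among genes with a mean of at least 10 counts. In p16-3MR livers these were, of 12365 genes, Dnajc17 (rho 0.92), Zbp1 (0.87), Gvin1 (0.84), Zfp692 (0.84), H2-T24 (0.83), Calhm6 (0.82), Napsa (0.82), Tgtp1 (0.82), Ano8 (0.81) and Rad51b (0.81). In wild-type livers these were, of 6774 genes, C1qb (0.97), Rrp9 (0.95), Gstp3 (0.93), Uba7 (0.93), Ddx60 (0.92), Adh1 (0.91), Clec4f (0.91), Fdft1 (0.91), Slc38a3 (0.91) and Itih1 (0.90). C1qb and Clec4f are Kupffer cell markers of the lists used above. No gene was among the 10 of both tables, which rank different sets of genes by the mean of 10 and of 6 members. Further down, Cd52 stood at rank 12 in p16-3MR and 25 in wild-type livers, and Gsdmd at rank 19 and 14.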

How the data were processed

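Liver RNA of 24 mice was sequenced as Smart-3SEQ libraries of 3′ ends. The deposited values are estimated counts (expected counts), which the authors made with Salmon and tximport. They are whole numbers, not scaled to library size, and genes under 3 reads had been removed. The submitters' processing notes list FastQC 0.11.9, Trim Galore 0.6.10, Salmon 1.10.3 and build mm10. Depth and floors are given with the data and cover counting error only.

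Tests used edgeR 4.0.16 (R 4.3.3) with TMM scaling. Each table was fitted once, with a mean for each of its 4 groups, and quasi-likelihood p-values were adjusted by Benjamini and Hochberg's method across the whole table. A gene was called at an adjusted p under 0.05. Log2 CPM uses a prior count of 2. The study used DESeq2, which is an alternative here (DESeq2 1.42.0), with limma 3.58.1, other scalings, a stricter filter and each liver left out. All members were named, other genes were named from lists with their call or lowest p, and for likeness the 10 with the highest correlation. Python 3.11.15, numpy 2.4.6, pandas 2.3.3 and matplotlib 3.10.9 served for summaries and figures. The main fit was also run on data simulated from the means and dispersions of each table, and no result here rests on that run. Symbols and positions came from the GENCODE annotation of GRCm38 and sequences from RefSeq. Of 12643 wild-type labels, 10496 fit exactly 1 symbol. The members and all lists were chosen with earlier results of these data known. No 2 libraries of the same group were alike within sampling noise, libraries of different groups were not compared in this way, and all 24 were used. 1 of the listed genes is not reported here.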

Additional observations from a re-analysis of the deposited data

Results flagged for a closer look

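A liver was set apart from the others where its gap to the nearest value exceeded 0.625 of the range of its 6 livers, which chance does in about 5% of groups, and this was met in 2 of 32 groups of 6 livers of 1 sex. Among p16-3MR females, Nlrc5 stood at 82.6 CPM in GCV-treated liver 33, a gap of 0.70 of the range. This liver also had 64.0% mitochondrially encoded counts and 13409 genes with counts. Among wild-type females, Psmb8 stood at 82.1 CPM in VEH-treated liver 5, a gap of 0.745 of the range. Without this liver the difference of Psmb8 between wild-type females and males was 0.40 on the log2 scale (edgeR adjusted p = 0.0403).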

How the results depend on the processing

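No member called changed direction under the alternatives run. In p16-3MR livers 0 of 10 members were called in the 4 comparisons under every setting. Their medians, leaving out each liver in turn, ran from -0.53 to 0.02 for GCV in females, 0.10 to 0.80 in males, -1.14 to -0.43 for the difference between the sexes and -0.19 to 0.15 for females minus males. Psmb8 in wild-type females minus males kept its call in every fit of both treatments, from 0.40 to 0.59. The number of wild-type members called in that comparison was 1, and it was 2 at an adjusted p under 0.1 (with Nlrc5, against 1407 of 12643 genes). It was 0 in VEH livers only (against 483 genes) and 0 in GCV livers only (against 410). Within VEH livers limma-voom called 1, against 624 of 12643 genes, and leaving out each liver gave 0 to 2 in edgeR, against 319 to 716 genes. In both treatments leaving out each liver gave 1 to 2, with 2 (Nlrc5 at 0.90, adjusted p = 0.0119) without VEH-treated female 4. By Pearson correlation 6 of the 10 genes most like the members were shared in p16-3MR livers and 4 of 10 in wild-type livers. Among pairs of members in p16-3MR livers, H2-D1 with Nlrc5 was then highest (0.93) and Tap2 with Nlrc5 lowest (-0.40, against 0.47 by Spearman). Tap2 with Psmb8 stood at 0.62 against 0.92, Tap1 with Tap2 at 0.27 against 0.80 and H2-D1 with Tap2 at -0.24 against 0.43.

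By limma-voom the median of all genes was 0.10 for GCV in p16-3MR females and 0.10 for the difference between the sexes, against 0.00 and -0.04, and that of the members for the latter was -1.12. The median of the members by limma-voom was 0.72 for GCV in males, against 0.35 by edgeR. For females minus males in VEH livers it was 0.56 against 0.29. Counts of called genes moved more over all genes than over the members. In p16-3MR females edgeR called 0 genes for GCV, DESeq2 90, limma-voom 7 and edgeR on the 6 female livers 3. In males DESeq2 called 5 and limma-voom 145. For the difference between the sexes DESeq2 called 3 and limma-voom 1, and for females minus males 196 and 215 against 66. In wild-type females DESeq2 called 17, limma-voom 3 and the fit of 6 livers 44 against 1.

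Wild-type GCV and VEH livers share replicate numbers. The correlations of deviations within a number were -0.02, -0.03 and 0.03 in females and 0.11, 0.16 and -0.02 in males. Between different numbers they ran from -0.19 to 0.08. Not every liver correlated best with its own number, and these few correlations cannot decide whether the numbers pair the mice. With the replicate block 0 of 6 members were called for GCV in females, in males and for their difference, while calls over all genes went from 1 to 106, from 0 to 68 and from 1 to 79. The numbers are nested in sex, so females minus males cannot carry the block, and p16-3MR mice share no numbers. Depth limits Tap2 in liver 33 (2 counts) and the wild-type T and natural killer cell markers.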
